A study of Mus musculus with 768 samples.

Results

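The 6 genes Ptprm, Gpx6, Cap1, Ddit4l, Fam163b and Gda, out of 24489 genes counted in single nuclei of the mouse striatum, are described here by cell class, by mouse line and by their relation to genes of the striatal matrix. They were chosen by their level in nuclei of the Oprm1-Cre line against the Slc32a1-Cre line, so that difference is a description with no test and supports nothing further. Levels are given as CPM, reads of a gene per 1000000 reads on genes. Among 8010 genes with at least 20 CPM in spiny projection neuron-like (SPN-like) nuclei of either line, all but Gda stood between rank 14 and rank 25 from the lowest log2 ratio of the lines. Fam163b and Gpx6 were at -1.89, Cap1 at -1.88, Ddit4l at -1.76 and Ptprm at -1.60, and the next gene, Nt5e at rank 26, was also at -1.60. These ratios pool the SPN-like nuclei of a line, of which 6.65% with Oprm1-Cre and 41.4% with Slc32a1-Cre were of the D2 class, so the mix of classes enters the ranking. With the D1 and D2 classes weighted alike, Cap1 was at -1.67, Gpx6 at -1.55, Ddit4l at -1.31, Ptprm at -1.27, Fam163b at -1.09 and Gda at 0.03, while Nt5e was at -0.10. Gda went against the label of genes lower with Oprm1-Cre: its ratio was 0.27, at rank 5980 from the lowest.

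The striatum is built mostly of SPNs, inhibitory neurons that carry either the D1 or the D2 dopamine receptor. Their cell bodies lie either in patches (striosomes), which are rich in the mu opioid receptor encoded by Oprm1, or in the surrounding matrix, which is rich in calbindin (Calb1). The 6 genes have unrelated textbook roles. Ptprm encodes a receptor tyrosine phosphatase whose outer part binds its own kind on the next cell. Gpx6 belongs to the glutathione peroxidases, which reduce peroxides, and Gda is guanine deaminase (cypin), which turns guanine into xanthine and is known in dendrites. Cap1 is a cyclase-associated protein that helps recycle actin monomers, and Ddit4l (also called REDD2) restrains the growth kinase complex mTORC1. Fam163b is a little studied gene.

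Untreated C57BL/6 mice of the genotype Oprm1-Cre:H2BG or Slc32a1-Cre:H2BG filled 768 wells in all, with 1 nucleus a well and 1 plate a genotype. Both genotypes carry H2BG, which the labels do not spell out; Cre is driven from the mu opioid receptor gene in the first line and from the vesicular GABA transporter gene in the second. Slc32a1-Cre therefore marks GABAergic neurons in general, patch neurons among them. Oprm1-Cre marks cells in which Cre has been made from the Oprm1 locus, wherever they lie. The number, age and sex of the animals were not given in the sources used here. A plate is therefore 1 sample, no test between the plates was made, and plate, animals and genotype cannot be told apart.

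A well was kept with at least 20000 reads on genes and at least 1000 genes, which left out 29 Oprm1-Cre and 3 Slc32a1-Cre wells and kept 736 nuclei, with medians of 169398 and 175337 reads. Reads of Y-linked genes were found in 90.99% of the Oprm1-Cre nuclei and in 0 of the Slc32a1-Cre nuclei (a count of 0 leaves room for at most 0.787%), while Xist had reads in 1.97% and 72.7%. The plates thus differed in sex-linked transcripts as well, in the direction of male Oprm1-Cre and female Slc32a1-Cre animals. A difference by sex cannot be told apart from one by plate or genotype. Malat1 in D1-like nuclei was at 72729 and 50800 CPM and the activity gene Fos at 0.581 and 17.4 CPM. The part of these differences in the values below was not tested. Oprm1 itself, at 39.3 CPM in Oprm1-Cre and 2.85 CPM in Slc32a1-Cre D1-like nuclei, differed there in the direction of the labels. In D2-like nuclei it did not, being low in both plates, at 2.74 CPM with Oprm1-Cre and 4.10 CPM with Slc32a1-Cre. The labels of the Slc32a1-Cre wells name a table under the other plate's number, so wells were assigned by the column names, and no pair of nuclei held identical counts.

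Nuclei were classed from marker genes as D1-like (492 in all, 84.2% of kept Oprm1-Cre and 50.7% of kept Slc32a1-Cre nuclei), D2-like (6.48% and 38.3%, the former being 23 nuclei), SPN-like but undecided (24 and 14 nuclei) or interneuron-like (9 and 28 nuclei, 1 cluster led by Npy and Sst). Numbers of nuclei are given in this order, and the full counts stand with the processing. Drd1a stood at 1830 and 2170 CPM in D1-like nuclei against 0.747 and 15.7 CPM in D2-like nuclei, and Drd2 at 5.16 and 7.12 CPM against 555 and 602 CPM. In the D1-like and D2-like groups of both plates the 10 SPN markers summed to between 10560 and 14131 CPM and the 14 interneuron markers to between 21.4 and 71.6 CPM. The 5 excitatory neuron markers summed to at most 0.763 CPM, the 5 vessel markers to at most 0.616 CPM and the 2 ependymal markers in the table to at most 2.02 CPM. Markers of glia were not absent: in the same 4 groups the oligodendrocyte genes Mbp, Mog, Mobp, Mag and Opalin summed to between 125.4 and 169.7 CPM, the 6 astrocyte markers to between 26.6 and 78.9 CPM, the 4 oligodendrocyte precursor markers to between 19.8 and 86.95 CPM and the 5 microglia markers to between 0.249 and 37.8 CPM. Their part in the results was not tested.

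The make-up of the classes bears on the values below. Cluster 3, with 57 Oprm1-Cre and 10 Slc32a1-Cre nuclei, was kept as SPN-like by its marker level, but its leading genes were Trh, Gal, Tacr3, Fxyd6 and Th; among the top 10 were 1 interneuron marker and 0 markers of SPNs. It held 40 and 4 of the D1-like, 2 and 1 of the D2-like and 15 and 5 of the undecided nuclei. The largest cluster of SPN-like nuclei, cluster 0, held 61.9% of the Oprm1-Cre and 10.9% of the Slc32a1-Cre D1-like nuclei, so the main values that moved without either cluster are given beside them.

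The members lie on 6 different chromosomes of GRCm38, the assembly called mm10 in the submitters' notes: Ptprm at chr17:66666947-67354457 (minus strand), Gpx6 at chr13:21312125-21319624 (plus), Cap1 at chr4:122859047-122886056 (minus), Ddit4l at chr3:137621612-137628333 (plus), Fam163b at chr2:27110380-27142491 (minus) and Gda at chr19:21391307-21473445 (minus). Cap1 shares exon bases with Ppt1 on the opposite strand, and Ptprm holds antisense genes and pseudogenes within its 687.5 kb, of which 2 touch its exons. Whether the counting used strand was not given in the sources used here; reads in these stretches cannot be assigned with certainty.

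The 250 bases upstream of the RefSeq start (GRCm38.p6) are shown for Cap1, Ddit4l and Fam163b, the members whose level followed the matrix genes with a correlation above 0.2 in at least 1 group of over 100 nuclei. They lie at chr4:122886077-122886326 (minus strand), chr3:137623422-137623671 (plus) and chr2:27142478-27142727 (minus), and are written 5′ to 3′ on the gene's strand. The Ddit4l window lies in an intron of a longer processed transcript in the GENCODE annotation, the Cap1 window lies outside the gene, and the Fam163b window reaches a few bases into the annotated first exon. Capitals mark CCAAT or GGGCGG on either strand, the reverse complements being ATTGG and CCGCCC.
Cap1: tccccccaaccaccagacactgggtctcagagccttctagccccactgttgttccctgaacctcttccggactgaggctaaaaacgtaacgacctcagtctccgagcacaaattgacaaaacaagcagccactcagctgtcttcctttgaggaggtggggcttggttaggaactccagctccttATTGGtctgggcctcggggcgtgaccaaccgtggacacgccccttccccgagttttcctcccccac
Ddit4l: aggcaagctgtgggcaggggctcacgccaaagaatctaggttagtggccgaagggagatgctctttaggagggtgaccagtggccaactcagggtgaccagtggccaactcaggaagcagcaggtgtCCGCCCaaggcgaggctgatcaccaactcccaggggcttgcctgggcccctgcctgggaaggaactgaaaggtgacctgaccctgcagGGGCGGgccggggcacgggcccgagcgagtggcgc
Fam163b: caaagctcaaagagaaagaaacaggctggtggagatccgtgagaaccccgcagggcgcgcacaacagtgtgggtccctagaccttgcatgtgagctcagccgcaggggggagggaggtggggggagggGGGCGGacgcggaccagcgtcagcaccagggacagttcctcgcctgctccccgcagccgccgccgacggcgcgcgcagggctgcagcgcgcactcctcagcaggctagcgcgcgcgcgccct
The 3 windows differ in type. Cap1 has 1 CCAAT match, 66 bases from the start, and no GGGCGG, whereas Ddit4l has 2 GGGCGG matches, the nearer at 35 bases, and Fam163b has 1. CCAAT is present in 34.5% and GGGCGG in 32.9% of 27025 RefSeq promoter windows of this length, so either is common. Fam163b holds 25 CpG pairs, more than 89.7% of those windows, while Ddit4l holds 10 and Cap1 9, against a median of 6. Of the members not shown, Ptprm holds 37 CpG pairs and 2 GGGCGG matches, Gpx6 3 and Gda 5 CpG pairs with 1 CCAAT match each. TATAAA, the cyclic AMP response motif TGACGTCA and the nuclear receptor motif AAAGGTCA, each searched on both strands, occurred in 0 of the 6 windows and in 13%, 1.62% and 1.31% of all. The motif CANNTG, whose matches may overlap those of the others, was in 5 of the 6 windows, all but that of Ptprm, and in 66% of all windows.

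Levels below are CPM of reads summed over the nuclei of a class, with exact 95% Poisson intervals. Shares are the percentage of nuclei with at least 1 read after each nucleus was thinned to 50000 reads, with exact (Clopper-Pearson) 95% binomial intervals; 5 kept SPN-like nuclei were shallower and stayed out. The counts carry no molecular identifiers, so intervals cover counting error only and say nothing of the spread between animals. The Poisson intervals also leave out repeated reads of 1 molecule and the spread between nuclei. They are too narrow where few nuclei hold most of the reads. In these sums, more nuclei with the transcript and more transcript per nucleus are told apart only through the shares.

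Of the 6 members Cap1 had reads in the largest share of D1-like and of D2-like nuclei in both plates, and it was lower with Oprm1-Cre by a similar factor in both classes. Its D1-like level was 58.2 CPM (56.2 to 60.3) with Oprm1-Cre and 208.2 CPM (203.5 to 213.1) with Slc32a1-Cre. The D2-like levels were 79.6 CPM (71.2 to 88.9) and 253.4 CPM (247.7 to 259.3). The median D1-like nucleus had no Cap1 read in the first plate and 132.96 CPM in the second, with an upper quartile of 91.9 against 288.6 CPM and a highest nucleus of 644 against 946 CPM. Nuclei of the plates therefore overlapped widely. At equal depth 42.8% (37.1 to 48.6) and 71.4% (64.4 to 77.6) of D1-like nuclei had a read, and 60.9% (38.5 to 80.3) and 77.4% (69.7 to 83.9) of D2-like nuclei. Where Cap1 was read at all in a D1-like nucleus, its median was 92.9 CPM with Oprm1-Cre and 189.2 CPM with Slc32a1-Cre, so both the share and the level in positive nuclei were lower. In interneuron-like nuclei the order was not the same: 71.8 CPM (59.4 to 85.97), 56.8% of it from 1 of 9 nuclei, against 62.7 CPM (55.9 to 69.96).

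The neighbour that shares exon bases with Cap1, Ppt1 (palmitoyl-protein thioesterase), had D1-like levels of 513 and 359.3 CPM, a log2 ratio of 0.51, and D2-like levels of 309.4 and 334.7 CPM. Ppt1 thus stood the other way in D1-like nuclei. Cap2, the second cyclase-associated protein, stood at 213.8 and 258.2 CPM in D1-like and 245.4 and 267.8 CPM in D2-like nuclei, log2 ratios of -0.27 and -0.12.

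For Ddit4l the plates lay further apart in D1-like than in D2-like nuclei, a difference between classes that was not tested. Its D1-like levels were 35.99 CPM (34.4 to 37.6) and 147.2 CPM (143.2 to 151.2), and its D2-like levels 73.4 CPM (65.3 to 82.3) and 138.3 CPM (134.05 to 142.6). The median nucleus had no read in any of these 4 groups, while the highest reached 894, 1401, 631 and 1584 CPM in that order, so the sums rest on a minority of nuclei. Reads were in 16.8% (12.8 to 21.6) and 38.02% (31.1 to 45.3) of D1-like nuclei at equal depth. The D2-like shares, 34.8% (16.4 to 57.3) and 41.8% (33.7 to 50.2), lay within each other's intervals. Interneuron-like nuclei were nearly without Ddit4l: 0 of 9 nuclei with Oprm1-Cre, a count that leaves room for at most 33.3%, and 3.57% at equal depth with Slc32a1-Cre (10.7% at the full median depth of 171850 reads).

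Gpx6 was read in few nuclei. Its levels were 14.1 CPM (13.2 to 15.2) and 49.7 CPM (47.4 to 52.1) for D1-like and 25.6 CPM (20.9 to 31.1) and 85.5 CPM (82.2 to 88.9) for D2-like nuclei. A single nucleus held 59.2% of the reads of the Oprm1-Cre D2-like group, and without it the level was 11.1 CPM. The shares were 6.40% (3.90 to 9.81) and 17.2% (12.1 to 23.3) in D1-like nuclei, and 17.4% (4.95 to 38.8) and 27.4% (20.3 to 35.4) in D2-like nuclei. Positive D1-like nuclei had similar medians, 171.01 and 210.2 CPM, so the plates differed more in how many nuclei had Gpx6 than in how much those held. Interneuron-like nuclei had reads in 0 of 9 and in 7.14%, with 94.2% of the latter's reads in 1 nucleus.

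Ptprm was close to absent from D1-like nuclei in both plates, so its ratio there compares a few nuclei. The Oprm1-Cre D1-like nuclei held 23 reads in 7 nuclei, or 0.418 CPM (0.265 to 0.627). The Slc32a1-Cre D1-like nuclei held 392 reads in 10 nuclei, or 11.2 CPM (10.1 to 12.3), and without 1 nucleus that carried 47.7% of them the level was 5.88 CPM. D2-like nuclei had more, at 47.8 CPM (41.3 to 55.04) and 119.2 CPM (115.2 to 123.2), read at equal depth in 26.1% (10.2 to 48.4) and 36.3% (28.5 to 44.7) of nuclei. Its highest levels were in interneuron-like nuclei, 231.8 CPM (209.1 to 256.3) and 175.1 CPM (163.7 to 187.03), where 88.9% and 50% of nuclei had a read and the Oprm1-Cre plate was the higher. The undecided SPN-like nuclei also had Ptprm, at 197.9 CPM (184.3 to 212.2) with Oprm1-Cre, in 40.9% (20.7 to 63.6) of nuclei, and at 20.97 CPM (15.8 to 27.3) with Slc32a1-Cre. In the Oprm1-Cre plate these few nuclei held 790 of the 1005 Ptprm reads of all SPN-like nuclei, and 767 of the 790 lay in cluster 3.

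Fam163b was lower in D1-like than in D2-like and interneuron-like nuclei of both plates. Its D1-like levels were 15.01 CPM (14.001 to 16.1) and 29.5 CPM (27.7 to 31.3), and its D2-like levels 59.7 CPM (52.4 to 67.8) and 141.05 CPM (136.8 to 145.4). Interneuron-like nuclei had 168.5 CPM (149.3 to 189.6) and 125.1 CPM (115.55 to 135.3). The undecided nuclei had 8.52 and 25.5 CPM. Among the 9 interneuron-like nuclei of the Oprm1-Cre plate, 1 nucleus held 50.9% of the reads. The shares were 12.8% (9.22 to 17.1) and 16.7% (11.7 to 22.7) in D1-like nuclei and 43.5% (23.2 to 65.5) and 50.7% (42.3 to 59.05) in D2-like nuclei. At this depth no difference in share between the plates was detectable for Fam163b in either SPN class.

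Gda was higher with Oprm1-Cre in D1-like nuclei, while in D2-like nuclei its level and its share gave opposite orders. Its D1-like levels were 79.9 CPM (77.5 to 82.3) and 67.6 CPM (64.9 to 70.3), and its D2-like levels 48.5 CPM (41.96 to 55.8) and 57.6 CPM (54.9 to 60.4). Reads were in 36.4% (30.9 to 42.1) and 23.96% (18.1 to 30.6) of D1-like nuclei, and the difference of 12.4 points was 22.7 points without cluster 0. Among D2-like nuclei the share was 56.5% (34.5 to 76.8) and 26.03% (19.1 to 33.9), intervals that did not overlap. The D2-like CPM intervals overlapped and their order was the opposite. No order of the plates is therefore read for Gda in D2-like nuclei. Interneuron-like nuclei gave 34.1 and 37.1 CPM, 91.1% and 99.5% of them from 1 nucleus in each plate.

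**Figure D1:**
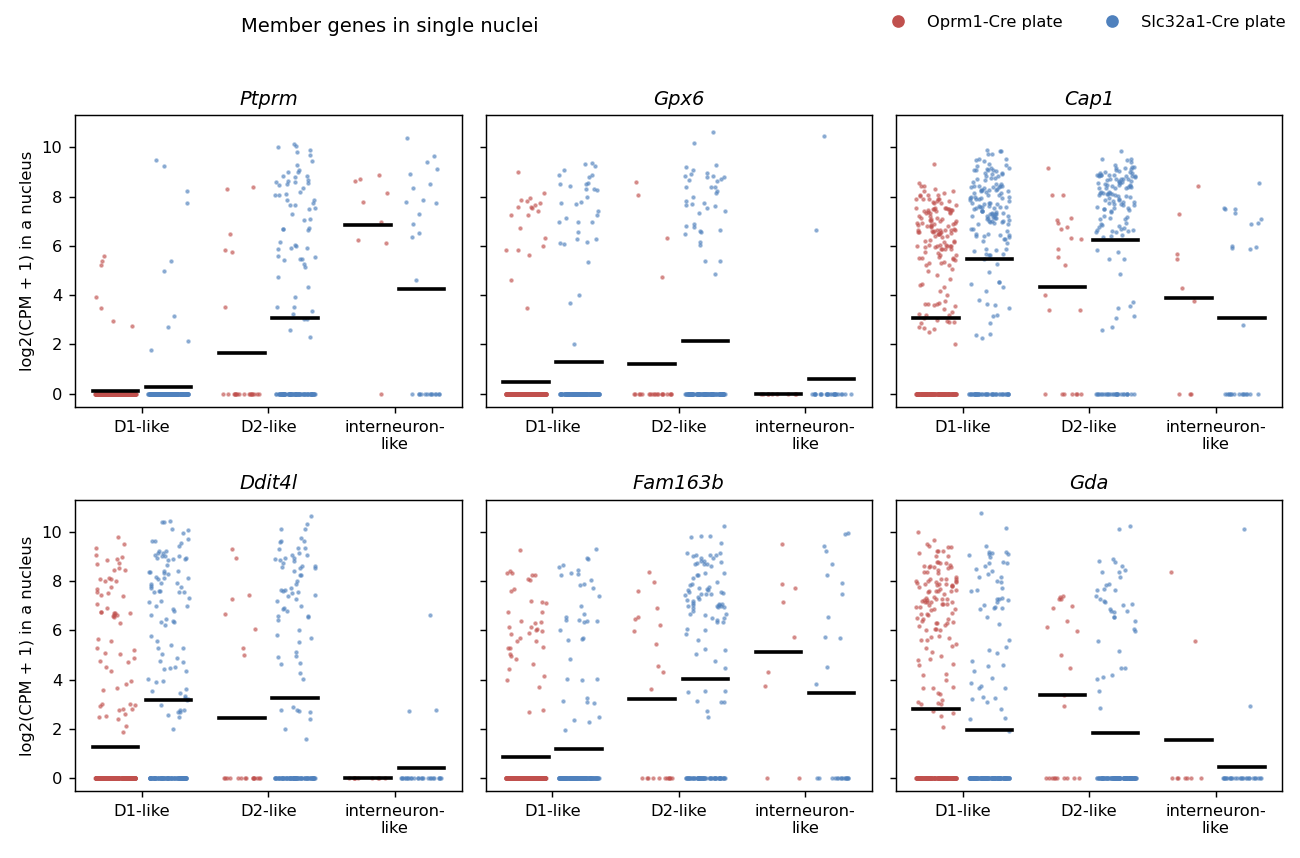
Each point is 1 nucleus, its height the log2(CPM + 1) of the gene named above the panel, split by class and plate, and black bars are means over nuclei. Most D1-like nuclei have no Ptprm or Gpx6 read, Cap1 is spread from 0 to 946 CPM in D1-like nuclei, and Ptprm is highest on average in interneuron-like nuclei among the classes plotted.

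**Figure D2:**
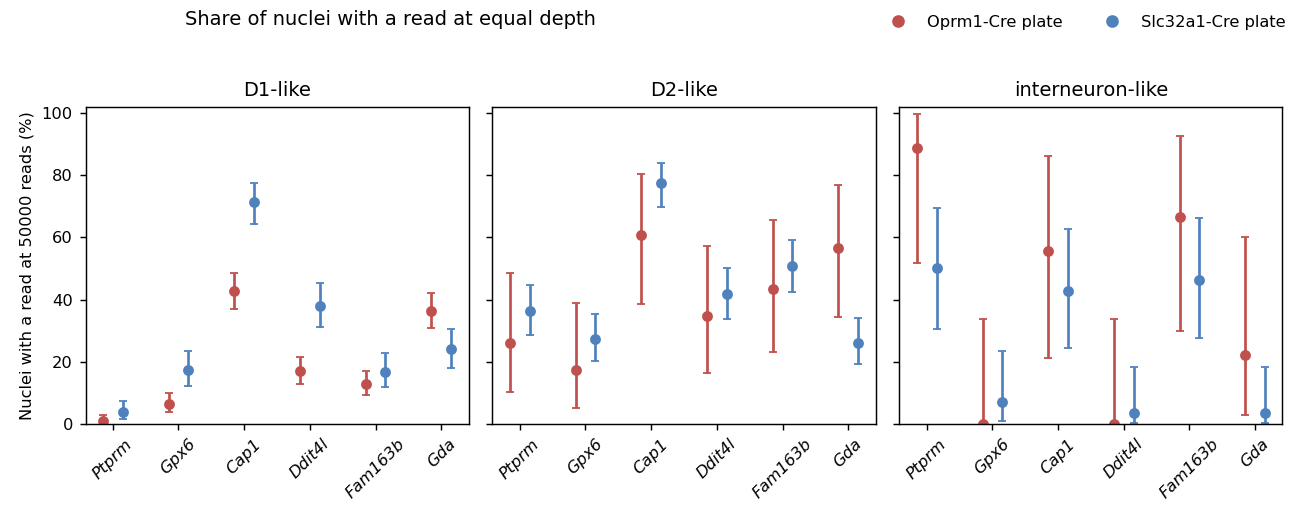
Percentage of nuclei with at least 1 read of each gene at 50000 reads a nucleus, by class and plate, with exact 95% binomial intervals. Among D1-like nuclei the intervals of Gpx6 (6.40% and 17.2%), Cap1 (42.8% and 71.4%) and Ddit4l (16.8% and 38.02%) do not overlap, and Gda lies the other way (36.4% and 23.96%).

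Ratios between the plates were taken as the log2 of CPM with 5 CPM added to both sides, which understates the change of low genes. In D1-like nuclei Ddit4l was at -1.89, Cap1 at -1.75, Ptprm at -1.58, Gpx6 at -1.52, Fam163b at -0.78 and Gda at 0.23. Without cluster 0, Ddit4l was at -1.58 and Gda at 0.53. Below -0.5 were 5 of the 6 members, where 12.3% of 11017 genes lay, and 0 were above 0.5, where 14.9% lay; since the members were chosen on this contrast, nothing is read from the count. Their median was -1.55 against 0.00 over all genes, beside -1.30 for the 6 matrix genes and 1.63 for the 9 patch genes. In D2-like nuclei Cap1 was at -1.61, Gpx6 at -1.56, Ptprm at -1.23, Fam163b at -1.17, Ddit4l at -0.87 and Gda at -0.23. Again 5 members were below -0.5, but with 23 nuclei in 1 arm so were 29.8% of 10924 genes, and 0 members were above 0.5 against 23.3%. The medians there were -1.20 for the members, -0.55 for the matrix genes and -0.08 for all genes.

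By shares, a fall of more than 10 percentage points in the Oprm1-Cre plate was met in D1-like nuclei by 3 members, Gpx6, Cap1 and Ddit4l, and by 3.24% of 9263 genes. In D2-like nuclei it was met by 3 members, Ptprm, Gpx6 and Cap1, and by 7% of 9128 genes. Ptprm and Gpx6 passed there by little, Ptprm at -10.2 points and Gpx6 by less, and without cluster 3 only Cap1 passed, with Ptprm at -7.29 and Gpx6 at -8.54. The median difference over all genes was 1.72 points in D1-like and 5.06 points in D2-like nuclei, the Oprm1-Cre share being the higher. How many genes rose by as much as Gda was not counted. The contrast is the same, so these counts are a description too.

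Within a plate the members differed by class. The ranking that chose them pooled the classes, and the plates held different shares of D2-like nuclei, so it favours genes higher in D2-like than in D1-like nuclei. Nt5e shows this: its pooled ratio of -1.60 stood beside -0.36 for the D1-like and -0.07 for the D2-like class. The following counts are therefore a description, and nothing is read from them. Above 0.5 in the log2 ratio of D2-like over D1-like nuclei were 4 members in the Oprm1-Cre plate, where 19.2% of 11085 genes lay, and 3 in the Slc32a1-Cre plate, where 10.4% of 10888 genes lay. Ptprm stood at 3.28 and 2.94 and Fam163b at 1.69 and 2.08 in the Oprm1-Cre and Slc32a1-Cre plates. Gpx6 stood at 0.68 and 0.73, but in the Oprm1-Cre plate at 0.03 with the top nucleus of each class left out. Ddit4l stood at 0.94 and -0.09, with 0.49 in the first plate without the top nuclei, and at 0.52 there without cluster 0. Cap1 stood at 0.42, or 0.16 without cluster 3, and 0.28, and Gda at -0.66 and -0.21. With the undecided nuclei counted, the order of Ptprm levels was interneuron-like, undecided, D2-like, D1-like in the Oprm1-Cre plate and interneuron-like, D2-like, undecided, D1-like in the Slc32a1-Cre plate. For Fam163b it was interneuron-like, D2-like, D1-like, undecided in the first plate and D2-like, interneuron-like, D1-like, undecided in the second. In that plate the intervals of the last pair (29.5 and 25.5 CPM) overlapped, as did those of D2-like and interneuron-like shares.

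Correlation with the matrix genes was measured over the nuclei of 1 class in 1 plate, between a member's level and the mean level of Id4, Epha4, Epha7, Calb1, Sv2b and Rasgrp2, all at 50000 reads. It is Spearman's rho, given as a description over nuclei that share a library plate and vary in the number of genes detected, with which the matrix mean itself had a rho between 0.37 and 0.40 in the 3 groups of over 100 nuclei. The median over all genes read in at least 10% of nuclei was 0.040 for Oprm1-Cre D1-like, 0.047 for Slc32a1-Cre D1-like and 0.060 for Slc32a1-Cre D2-like nuclei.

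Ddit4l followed the matrix genes in D1-like nuclei of both plates. Its rho was 0.25 over the Oprm1-Cre nuclei, where 13 of 8945 genes were higher, and 0.24 over the Slc32a1-Cre nuclei, where 76 of 8560 were higher. Given the number of genes detected, the values were 0.23 and 0.16. In the Oprm1-Cre plate its correlation was positive with 6 of the 6 matrix genes, from 0.10 to 0.19, the highest being with the ephrin receptor gene Epha4; in the Slc32a1-Cre plate it was positive with 5. For comparison, each matrix gene against the other 5 gave between 0.04 and 0.38 in the Oprm1-Cre plate and between 0.09 and 0.26 in the Slc32a1-Cre plate. Its rho with the patch genes was -0.15 and -0.12. Over Slc32a1-Cre D2-like nuclei its rho was 0.09, close to the median of all genes, and 0.21 when nuclei were thinned to 100000 reads instead.

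Cap1 followed them in 1 plate. Over Slc32a1-Cre D1-like nuclei its rho was 0.30, with 9 of 8560 genes higher, and 0.21 given the number of genes detected. It was positive there with 6 of the 6 matrix genes, up to 0.29 with Epha4. Over Oprm1-Cre D1-like nuclei it was 0.02, and -0.05 given the number of genes detected. Without cluster 0, however, it was 0.17 with Oprm1-Cre and 0.19 with Slc32a1-Cre, so the plates lay apart only with that cluster kept. Slc32a1-Cre D2-like nuclei gave Cap1 a rho of 0.20. The difference between the plates was not tested.

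Fam163b followed the matrix genes in Slc32a1-Cre D2-like nuclei, with a rho of 0.27, where 1.34% of 8299 genes were higher, and of 0.20 given the number of genes detected. In D1-like nuclei, where fewer nuclei had its reads, the rho was 0.10 and 0.00. Gpx6 stood between 0.10 and 0.12 in the 3 groups of over 100 nuclei, a weak value in sparse counts. Gda, with 0.06, -0.03 and 0.08, lay within the middle 50% of genes in 2 of them and below it over Slc32a1-Cre D1-like nuclei, where 85% of genes were higher. Without cluster 0 it was at -0.19 in Oprm1-Cre D1-like nuclei. Ptprm was read at equal depth in 3 and 7 D1-like nuclei, too few for a correlation to be read, and had 0.03 over Slc32a1-Cre D2-like nuclei.

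Against all genes of the same groups the counts above a rho of 0.1 were as follows. Among Oprm1-Cre D1-like nuclei 2 of the 4 members read in at least 10% of nuclei passed, and 17.2% of all genes did. Among Slc32a1-Cre D1-like nuclei 3 of 5 passed, and 25.2% of all genes. Among Slc32a1-Cre D2-like nuclei 2 of 6 passed, and 34.1% of all genes, a share near the background. The 23 Oprm1-Cre D2-like nuclei gave 4 of 6 members above 0.1, but 43.3% of all genes lay above it, so no member's value is read from them.

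**Figure D3:**
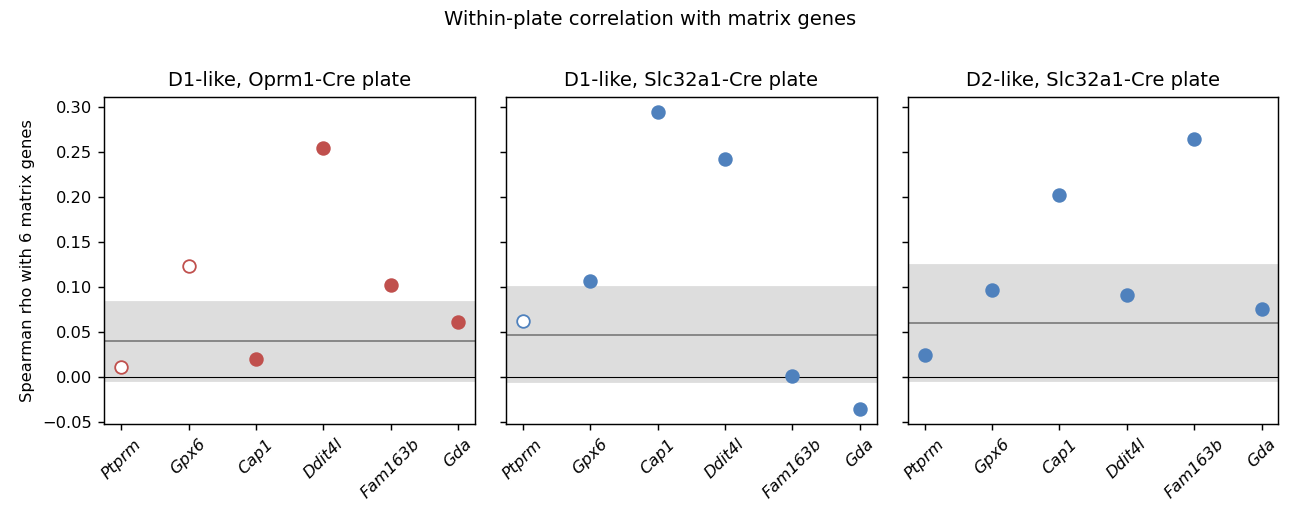
Spearman's rho of each gene with the mean of the 6 matrix genes over nuclei of 1 class and plate at equal depth; grey bands are the middle 50% of all genes read in at least 10% of nuclei, grey lines their median, and open points genes read in fewer. Ddit4l lies above the band in both D1-like groups (0.25 and 0.24), Cap1 in the Slc32a1-Cre groups (0.30 and 0.20), and Fam163b highest in D2-like nuclei (0.27).

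A score of the 9 patch genes minus the 6 matrix genes, which holds no member, was used to set D1-like nuclei of the plates side by side within the same range. Its median was 1.12 with Oprm1-Cre and -3.71 with Slc32a1-Cre. Ranges of the score below -1, from -1 to 1 and above 1 are called matrix-leaning, middle and patch-leaning; they are ranges, not cell types. They held 27.3%, 21.2% and 51.5% of the Oprm1-Cre nuclei and 84.4%, 7.81% and 7.81% of the Slc32a1-Cre nuclei, the last 2 of these being 15 nuclei each.

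Among matrix-leaning D1-like nuclei 5 of the 6 members were below -0.5, against 17.2% of 11088 genes, a count on the contrast that chose them. Ptprm was at -1.76, Cap1 at -1.74, Gpx6 at -1.07, Ddit4l at -0.90, Fam163b at -0.62 and Gda at 0.25. Without cluster 0 Cap1 was at -1.43; without cluster 3 Ddit4l was at -1.15 and Fam163b, at -0.49, no longer passed. The ratio of Cap1 in this range was close to that over all D1-like nuclei (-1.75), while that of Ddit4l was smaller than over all D1-like nuclei (-1.89). The other ranges, with 15 Slc32a1-Cre nuclei each, did not all keep this order. In the patch-leaning range Gpx6 was at 1.91, Ddit4l at 1.75, Fam163b at 1.48, Ptprm at -0.09, Cap1 at -0.28 and Gda at -1.45. In the middle range Gda was at 1.63, Fam163b at 0.93, Ptprm at 0.13, Cap1 at -1.50, Ddit4l at -2.37 and Gpx6 at -2.46.

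In the Oprm1-Cre plate Cap1 was at 64.4 CPM (60.4 to 68.6), 45.1 CPM (41.1 to 49.3) and 59.8 CPM (57.1 to 62.7) from matrix-leaning to patch-leaning nuclei. The shares with a read were 44.4% (33.4 to 55.9), 38.1% (26.1 to 51.2) and 43.8% (35.8 to 52.03). These intervals overlapped, so no order of the ranges is read for that plate. With Slc32a1-Cre the CPM of Cap1 went down, from 226.1 CPM (220.7 to 231.55) over 136.98 CPM (123.4 to 151.6) to 73.9 CPM (63.6 to 85.4). The shares there, 74.7% (67.3 to 81.2), 60% (32.3 to 83.7) and 46.7% (21.3 to 73.4), also had overlapping intervals. The patch-leaning nuclei of the plates thus had Cap1 at 59.8 and 73.9 CPM, in 43.8% and 46.7% of nuclei, whereas the matrix-leaning ones had it at 64.4 and 226.1 CPM, in 44.4% and 74.7%. The patch-leaning value of the Slc32a1-Cre plate rests on 15 nuclei.

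The CPM of Ddit4l went down over the score in the Oprm1-Cre plate, from 81.1 CPM (76.6 to 85.7) over 33.7 CPM (30.2 to 37.4) to 13.2 CPM (11.9 to 14.6). Reads were in 32.1% (22.2 to 43.4), 12.7% (5.65 to 23.5) and 10.5% (6.10 to 16.4) of nuclei. Of these shares only those of the matrix-leaning and patch-leaning nuclei had intervals that did not overlap. With Slc32a1-Cre it was at 155.2 CPM (150.7 to 159.7), 194.8 CPM (178.5 to 212.1) and 0.404 CPM (0.0102 to 2.25), the last being 1 read in 15 nuclei. Both plates had their lowest Ddit4l in patch-leaning nuclei. Fam163b was also lowest in patch-leaning nuclei of both plates, at 10.1 and 0.404 CPM, against 20.3 and 33.8 CPM in matrix-leaning ones. In Oprm1-Cre nuclei of the middle range, however, Fam163b was at 21.3 CPM. Its shares were 13.6%, 17.5% and 10.5% with Oprm1-Cre and 19.1%, 6.67% and 0% with Slc32a1-Cre. Their intervals overlapped within each plate, so no order is read from them. Gpx6 had its highest CPM in matrix-leaning nuclei of both plates, at 23.99 and 55.9 CPM. It did not go down steadily with Oprm1-Cre, being at 1.05 CPM in the middle range, with reads in 1 nucleus at equal depth, and at 13.7 CPM in the patch-leaning one. With Slc32a1-Cre these ranges had 28.4 CPM and 0 reads, in 15 nuclei each. By share the Slc32a1-Cre nuclei had Gpx6 in 18.5% of the matrix-leaning and 20% of the middle range. The share intervals of Gpx6 overlapped within each plate, so no order is read from them. Gda gave no common order: 71.4, 109.8 and 73.6 CPM in the Oprm1-Cre plate and 59.1, 32.04 and 209.9 CPM in the Slc32a1-Cre plate.

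**Figure D4:**
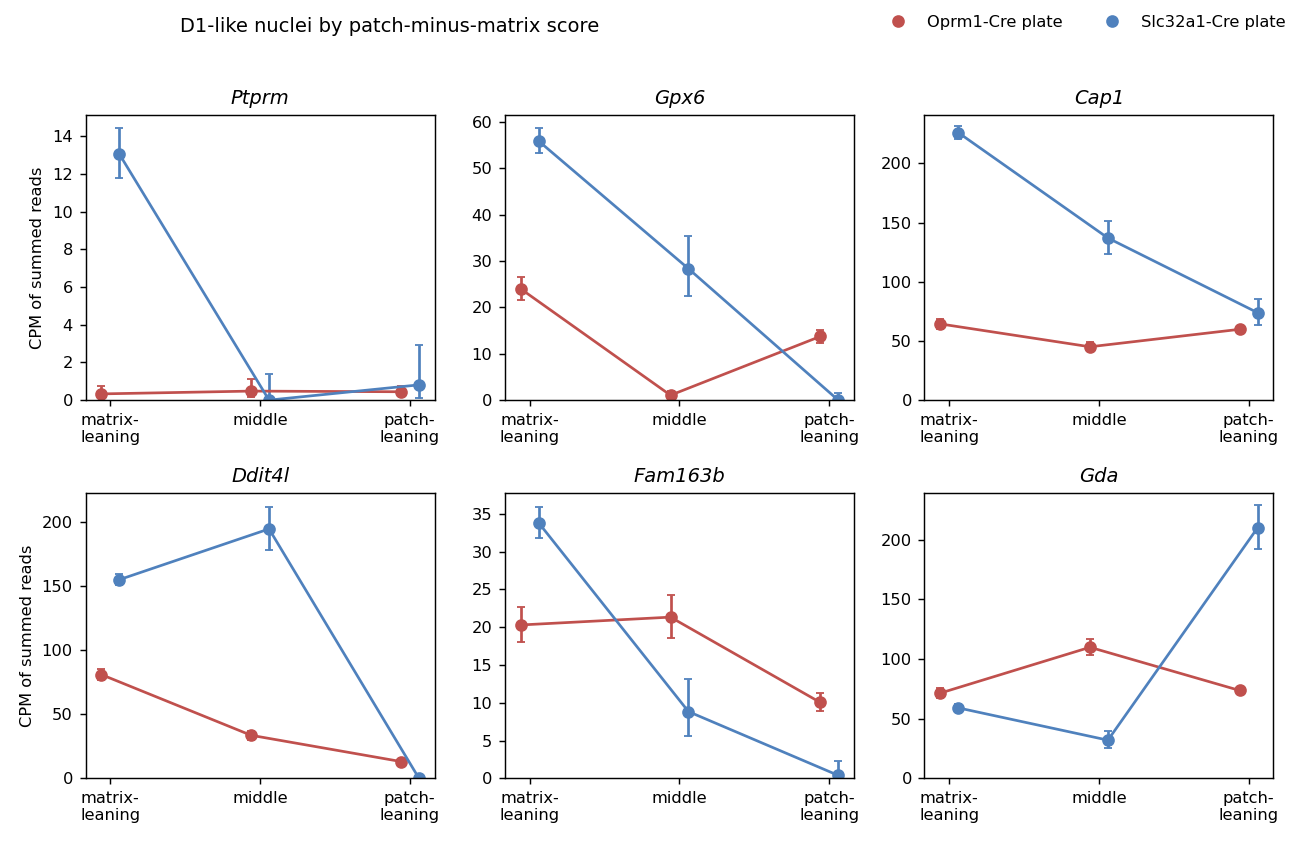
CPM of summed reads in D1-like nuclei by range of the patch-minus-matrix score (linear axes from 0), with exact 95% Poisson intervals, by plate. Cap1 is at 64.4, 45.1 and 59.8 CPM in the Oprm1-Cre plate, from which no order is read. In the Slc32a1-Cre plate its CPM goes down (226.1, 136.98 and 73.9 CPM). Ddit4l is lowest in the patch-leaning range of both plates. The middle and patch-leaning Slc32a1-Cre points hold 15 nuclei each.

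Clusters with at least 10 nuclei of each plate in 1 class, of which there were 5, gave a further view; they were made from all genes, so their gene levels are a description. Cap1 was below -0.5 in 4 of them, from -1.29 to -1.88. The exception was cluster 0, whose leading genes include the patch gene Sema5b: its Oprm1-Cre nuclei had Cap1 at 49.9 CPM and its 21 Slc32a1-Cre nuclei at 57.99 CPM, a ratio of -0.20. Ddit4l was below -0.5 in 4 of the 5 and just short of it, at -0.50, in the other. Fam163b was below -0.5 in 4 and above 0.5 in 1, Gpx6 below in 3 and above in 1, Ptprm below in 3 and above in 0, and Gda below in 1 and above in 1. Among D1-like clusters Gda was higher with Oprm1-Cre only in cluster 2, at 1.07 with 19 Oprm1-Cre nuclei. It was at -0.495, -0.35 and -0.20 in clusters 0, 4 and 5. The D2-like cluster, with 18 Oprm1-Cre nuclei, had all 6 members below -0.5, Gda by the least at -0.56. Shares over all genes are not given for single clusters. Over all D2-like nuclei 29.8% of genes lay below -0.5, so nothing is read from these counts.

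**Figure D5:**
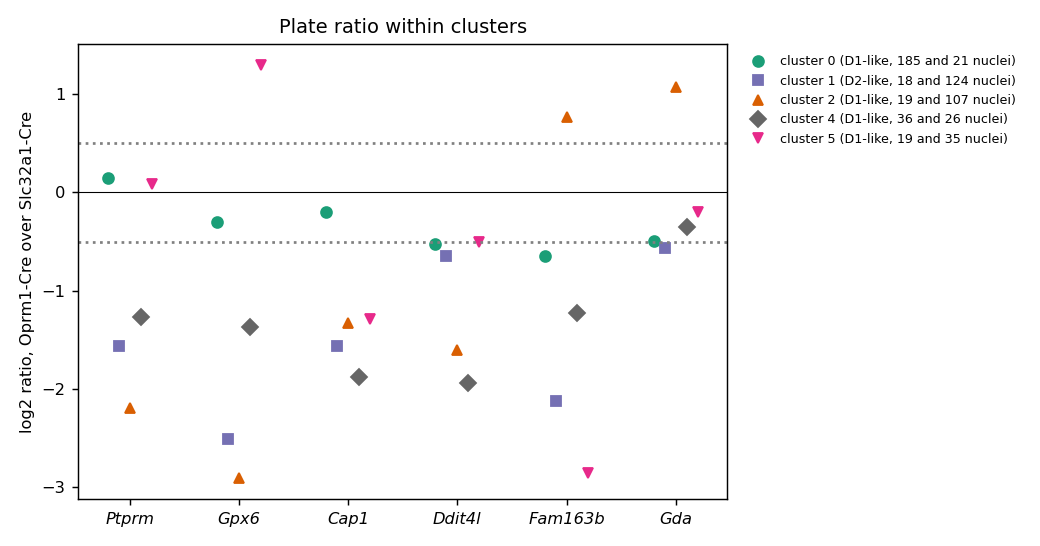
Log2 ratio of CPM, Oprm1-Cre over Slc32a1-Cre with 5 CPM added, for each gene within each cluster of SPN-like nuclei; the legend gives the class and the nuclei of the plates, and dotted lines mark -0.5 and 0.5. Cap1 lies between -1.29 and -1.88 in 4 clusters and at -0.20 in cluster 0, and Gpx6 and Fam163b have 1 cluster each above 0.5 (1.30 and 0.77).

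Little correlation was seen between the members from nucleus to nucleus. In each group most members were read in a minority of nuclei at equal depth, and so many nuclei without a read can hold rho near 0. These values therefore cannot decide whether the members rise and fall together. Over their 15 pairs the median rho was 0.03 over Oprm1-Cre D1-like, 0.02 over Slc32a1-Cre D1-like and 0.05 over Slc32a1-Cre D2-like nuclei, with a highest value of 0.22, for Ptprm and Cap1. The genes most like a member were taken as the 3 with the highest mean rho over D1-like nuclei of both plates, among 5604 genes read in at least 20% of nuclei. For Cap1 these were Pcp4 (0.25), a calmodulin regulator gene, Zwint (0.23) and Pja2 (0.22). The mean for Pja2 joins 0.04 with Oprm1-Cre and 0.40 with Slc32a1-Cre, so it was like Cap1 in 1 plate only. For Ddit4l they were Hpca (0.22), a neuronal calcium sensor gene, Vps29 (0.21) and Pak1ip1 (0.21). The top values of Gpx6 (Syt4, 0.19), Fam163b (Atad3a, 0.19) and Gda (Wfs1, 0.20) were lower, and those of Ptprm rest on 3 and 7 nuclei with reads.

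Genes of the same families and pathways were looked up from a list of 50, of which 40 had at least 5 CPM in a plate. In D1-like nuclei 4 of the 40 were below -0.5 and 0 above 0.5, where 12.3% and 14.9% of all genes lay, with a median of -0.07. They were Cdh2 (N-cadherin, listed with Ptprm) at -0.90, the actin monomer binder Twf1 at -0.84, glutathione reductase Gsr at -0.71 and the purine salvage gene Aprt at -0.51. In D2-like nuclei 10 were below and 7 above, where 29.8% and 23.3% of all genes lay, with a median of -0.07; the lower counts are near the background in both classes. Of the glutathione peroxidases measured beside Gpx6 in D1-like nuclei, Gpx1 was at 60.2 and 55.4 CPM and Gpx4 at 16.8 and 19.7 CPM. The partners of Cap1 in actin turnover were within 0.5 of no difference in D1-like nuclei in 10 of 11 cases, and the mTORC1 genes listed with Ddit4l in 7 of 7, as were 72.7% of all genes, with Tsc2 at 98.7 and 78.9 CPM. Ptprt, a phosphatase of the same subfamily as Ptprm, stood at 62.6 and 85.03 CPM in D1-like nuclei. In D2-like nuclei it stood at 0.249 and 23.9 CPM, a log2 ratio of -2.46, with 23 nuclei in the Oprm1-Cre group. Fam163a, the relative of Fam163b, stayed below 5 CPM in both plates.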

How the data were processed

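Whole-number read counts per gene and nucleus, as the authors deposited them, were used for 384 wells of each genotype. Per the submitters' processing notes the build was mm10 and SAMtools and Seurat were used; the aligner, counting tool, annotation and use of strand were not given in the sources used here. A column kit and a stranded total RNA kit that removes ribosomal RNA were used per the labels' protocols, and how single nuclei were amplified was not stated. The joint table and the genotype tables agreed in 18878976 of 18878976 values. The 92 spike-in transcripts and the reporter were left out of totals. Nuclei with at least 20000 reads and 1000 genes were clustered (2000 variable genes, 30 principal components, 15 neighbours, Leiden resolution 1, seed 1) with scikit-learn 1.9.0, igraph 0.11.9 and leidenalg 0.10.2 under Python 3.11.15 (scipy 1.17.1, numpy 2.4.6, pandas 2.3.3). This kept 355 Oprm1-Cre and 381 Slc32a1-Cre nuclei.

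A cluster took another class where that class's markers averaged more than 1 (log2) above all kept nuclei, a limit set with the data in view, and was otherwise SPN-like with SPN markers at 3 or more. D1-like and D2-like nuclei differed by more than 2 between the D1 and D2 scores (7 markers each); 30 SPN-like nuclei lay within 0.5 of that limit. There were 299 and 193 D1-like and 23 and 146 D2-like nuclei (Oprm1-Cre, Slc32a1-Cre), of which 297 and 192, and all D2-like ones, reached 50000 reads. Their score ranges held 81, 63 and 153 against 162, 15 and 15 D1-like nuclei. No doublets were removed. Ratios used summed counts with 5 CPM added. The code was tested on simulated data. The members and lists were chosen with earlier results of these data known; the members, the matrix and patch genes and the listed relatives are the genes named, and Nt5e, Ppt1 and the nearest genes follow from the data. Some leading genes of cluster 0 and part of a marker list are not reported here.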

Additional observations from a re-analysis of the deposited data

How the results depend on the processing

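The 10 counts and medians over the members were recomputed under the alternatives, which gave 96 values; 94 stayed close to the main value (a count within 1.5 times) and 0 reversed. The 2 that moved came from alternatives chosen after seeing the data. With the top nucleus of each member left out, 2 members instead of 4 were higher in D2-like than in D1-like Oprm1-Cre nuclei. With cluster 3 left out, 1 member instead of 3 had a share of D2-like nuclei lower by more than 10 points. The median correlations, 0.082, 0.085 and 0.094 in the main values, are smaller than the 0.1 within which a correlation counted as close. Their closeness therefore says little. A count that went from 3 to 2, as that of D2-like shares did without possible doublets, was also taken as close. Of 576 values of single genes, 530 stayed close (within 0.25 for log2 ratios, 0.1 for correlations and 5 points for shares). The sign turned in 15, all of them short of the limit used (0.5, 0.1 or 10 points) in the main values, and 12 of them were correlations. Beside those given with the results, the D2-over-D1 ratio of Cap1 with Oprm1-Cre, 0.42, was -0.08 with at least 100000 reads per nucleus. Ptprm moved most with the amount added to the CPM: its D1-like ratio of -1.58 was -3.1 with 1 CPM added. The D2-like share difference of Ddit4l, -7 points, was 4.74 points with at least 100000 reads per nucleus. Leaving out cluster 0 moved 9 of these values, of which 8 are given with the results; the other one, the rho of Ptprm over Oprm1-Cre D1-like nuclei, went from 0.01 to -0.10. Leaving out 49 possible doublets changed no count by more than 1.5 times. Why these values moved was not tested. No paired analysis was possible because each genotype is 1 plate and well positions do not pair nuclei. With 1 plate per genotype, every difference between the plates is without a replicate; the 23 Oprm1-Cre D2-like and 15 patch-leaning Slc32a1-Cre nuclei limit the values that rest on them.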
